A study of Mus musculus with 10 samples.

Results

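The genes described here encode the H3K4 methyltransferases of the KMT2 and SETD1 families and 3 of their partner proteins. They are Kmt2a, Kmt2b, Kmt2c, Kmt2d, Kmt2e, Setd1a, Setd1b, Cxxc1, Men1 and Wdr5, chosen by name and not by any measured value. Earlier results of these data were known when they were chosen. All 10 were found among 21887 protein-coding genes of the RefSeq annotation on mm10 coordinates. H3K4me3 peaks were mapped by ChIP-seq in nuclei carrying the neuronal protein NeuN, sorted from hippocampal area CA1 of male mice aged 3 months. The 8 libraries come from 4 CamkdeltaC transgenic samples and 4 wildtype littermate controls. CaMKIIδC is a splice form of calcium/calmodulin-dependent kinase II known from the heart, and the mouse line generally known by this name carries it under a cardiac promoter. The labels name no promoter. By the protocol text, littermate controls drank vehicle, while transgenic mice drank either vehicle or the histone deacetylase inhibitor vorinostat; the transgenic libraries used here carry no label for either. Nothing in the labels ties a library to its own animal, so p-values measure the spread between libraries, which may be technical.

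KMT2A and KMT2B, KMT2C and KMT2D, and SETD1A and SETD1B form 3 pairs of related enzymes that methylate lysine 4 of histone H3. Each works in a complex built on a shared core that contains WDR5. Menin, the product of Men1, joins the KMT2A and KMT2B complexes. CXXC1 brings the SETD1 enzymes to unmethylated CpG dinucleotides, and KMT2A and KMT2B carry a CpG-binding domain of the same kind. The SETD1 enzymes are known for the bulk of H3K4 trimethylation, KMT2C and KMT2D for monomethylation at enhancers, and KMT2E has a SET domain without clear activity of its own. KMT2A, KMT2B and SETD1A have been linked to memory or cognition in the mouse or in humans. The question put to the data is whether H3K4me3 at the genes of these proteins differs between transgenic and control neurons.

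For each gene 3 lengths were measured in every library. The window length is the number of base pairs covered by peaks within 2 kb to each side of the gene end that was better covered. The region length is the covered part of the full union region there, built from the peaks of all 8 libraries. The inside length is the part of the gene covered by other peaks. The lists hold between 51903 and 102285 peaks and cover 37.5 to 43.1 Mb in control and 45.2 to 57.7 Mb in transgenic libraries, so all 4 transgenic lists cover more of the genome than any control list. The number of reads is unknown. Of the marker genes of neurons 6 of 6 had a window peak in all 8 libraries, of CA1 pyramidal cells 5 of 6, of astrocytes 2 of 6, of oligodendrocytes 3 of 7, of endothelium 2 of 6 and of microglia 0 of 6. Of the microglia markers, 5 had no window peak in any library. The oligodendrocyte markers were mixed: among them, Mbp, Cnp and Olig1 had a window peak in all 8 libraries, Olig2 in 5, and Mog and Mag in none. The summed window length of that list was 4269 to 6125 bp in control and 3831 to 5318 bp in transgenic libraries.

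The promoter sequences of 6 of the 10 genes were found in the RefSeq table (GRCm38.p6, 250 bases before to 50 bases after the start site). Of these, 4 are shown because they differ in how peaks cover them: not at all in most libraries at Kmt2a, in part at Kmt2c, and over most of their length at Kmt2d and Wdr5. They read 5′ to 3′ on the gene's own strand, and capitals mark CpG dinucleotides, which CXXC1, KMT2A and KMT2B are known to bind when unmethylated.
Kmt2a: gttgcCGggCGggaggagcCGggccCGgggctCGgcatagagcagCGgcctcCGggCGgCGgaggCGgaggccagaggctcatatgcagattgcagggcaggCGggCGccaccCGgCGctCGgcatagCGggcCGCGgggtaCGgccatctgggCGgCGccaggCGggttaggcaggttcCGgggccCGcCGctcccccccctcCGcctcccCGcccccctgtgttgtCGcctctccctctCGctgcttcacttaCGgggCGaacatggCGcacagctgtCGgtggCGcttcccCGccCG
Kmt2c: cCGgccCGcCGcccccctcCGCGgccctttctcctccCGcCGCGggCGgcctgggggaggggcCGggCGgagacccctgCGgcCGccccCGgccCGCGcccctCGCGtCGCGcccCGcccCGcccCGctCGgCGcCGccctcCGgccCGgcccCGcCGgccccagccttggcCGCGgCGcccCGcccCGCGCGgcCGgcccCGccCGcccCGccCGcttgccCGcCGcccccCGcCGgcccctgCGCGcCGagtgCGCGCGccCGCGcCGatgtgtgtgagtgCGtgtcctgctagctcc
Kmt2d: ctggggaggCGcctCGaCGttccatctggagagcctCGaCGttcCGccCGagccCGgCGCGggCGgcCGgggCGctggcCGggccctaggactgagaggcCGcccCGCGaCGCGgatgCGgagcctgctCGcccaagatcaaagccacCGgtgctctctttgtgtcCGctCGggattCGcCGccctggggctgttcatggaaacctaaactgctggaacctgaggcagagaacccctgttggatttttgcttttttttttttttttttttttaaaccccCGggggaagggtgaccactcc
Wdr5: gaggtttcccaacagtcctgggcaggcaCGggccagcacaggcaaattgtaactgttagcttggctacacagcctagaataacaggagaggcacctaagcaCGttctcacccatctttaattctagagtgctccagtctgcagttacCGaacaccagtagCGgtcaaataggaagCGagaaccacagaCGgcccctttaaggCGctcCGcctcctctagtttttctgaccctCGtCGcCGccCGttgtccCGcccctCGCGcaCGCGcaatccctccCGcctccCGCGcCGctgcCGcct
They lie at chr9:44881240-44881539 (minus strand), chr5:25498734-25499033 (minus strand), chr15:98871156-98871455 (minus strand) and chr2:27514897-27515196 (plus strand).

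The Kmt2c promoter was the richest in CpG, with 56 of them and a GC content of 88%, higher than that of 99.98% of the 21263 promoters of protein-coding genes in the table. Kmt2a had 36 CpG and 75.7% GC, Setd1a 35 and 73.7%, Kmt2d 27 and 62.7%, Wdr5 22 and 59%, and Men1 16 and 57.7%. The median over all promoters was 13 CpG and 56.3% GC. The letters GGGCGG, or CCGCCC for the other strand, each of which holds a CpG, occurred 12 times in Kmt2c, 5 times in Kmt2a, 4 times in Kmt2d, 2 times in Wdr5, once in Men1 and not in Setd1a. They occur in 46.2% of all promoters of this length. The letters TATAAA or TTTATA, present in 12.6% of all promoters, were in none of the 6.

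Every member had a window peak in all 8 libraries, and the region lengths varied widely. At Kmt2d the better covered end holds the start of the neighbouring gene Prkag1, so its region length is given at its annotated start. Setd1b, Kmt2e, Kmt2a, Kmt2d and Kmt2c had mean region lengths from 9776 down to 3585 bp, and Kmt2b, Setd1a, Wdr5, Men1 and Cxxc1 from 2431 to 1837 bp. The median over all 14753 tested genes was 1758 bp. Within the enzyme pairs Setd1b was broader than Setd1a and Kmt2a than Kmt2b, without overlap of their ranges, and Kmt2d had a higher mean than Kmt2c with overlapping ranges. The ranges over the 8 libraries did not touch between Setd1b, Kmt2e, Kmt2a and Kmt2d. Each of the genes below Kmt2d overlapped in range with the gene above it, Kmt2c with Kmt2d included.

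**Figure D1:**
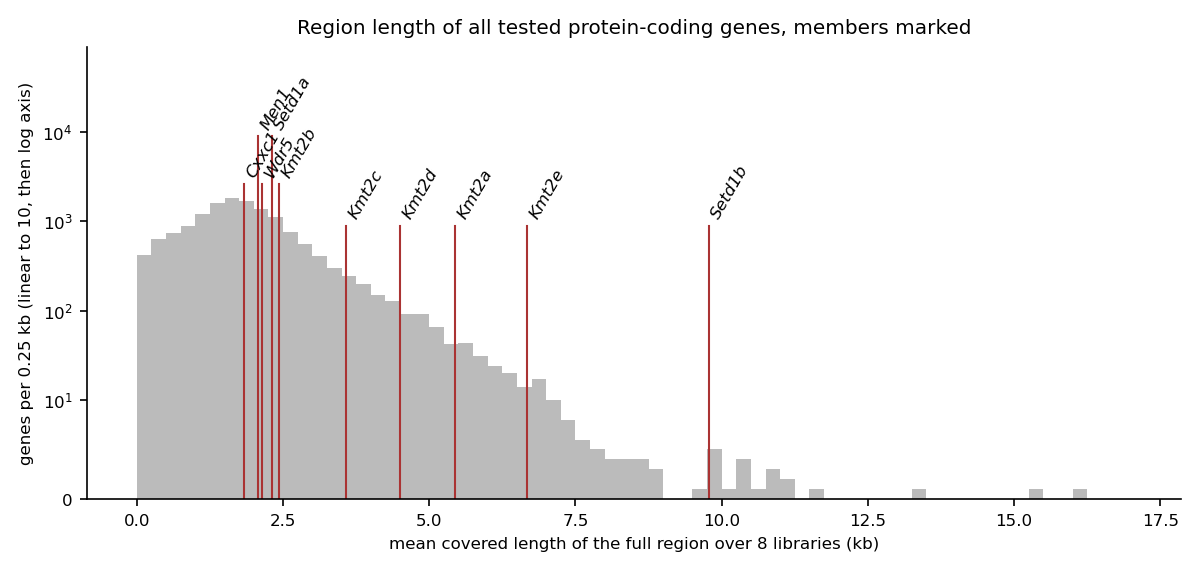
Histogram of the mean region length over 8 libraries (kb) for 14753 tested protein-coding genes, with a count axis that is linear to 10 and logarithmic above. Vertical lines mark the 10 members, Kmt2d at its annotated start, and 5 of them stand to the right of 3 kb.

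Setd1b had the longest mark, broader than 99.87% of tested genes. Its region (chr5:123135030-123145368) reaches 3328 bp into the gene and 7010 bp away from it, and holds 1 end of the neighbouring gene Rhof. The annotated start of Rhof on the minus strand, at 123132629, lies outside the region. The length cannot be divided between Setd1b and Rhof. Control replicates 1 to 4 had 9369, 10087, 9502 and 10225 bp and transgenic replicates 9452, 9577, 9954 and 10038 bp. The groups overlapped almost fully, and 77.6% of the region was covered in all 8 libraries. A further region inside the gene (chr5:123149241-123151368) was covered over 1469 to 1961 bp in all 8.

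Kmt2e followed, broader than 99.41% of tested genes, with its mark mostly inside the gene. Its region (chr5:23430471-23438208) reaches 5172 bp into the gene and 2565 bp away from it, and also holds 1 end of the noncoding RNA gene 5031425E22Rik. Control replicates 1 to 4 had 6179, 6661, 6485 and 6662 bp, and transgenic replicates 6694, 6984, 6742 and 7015 bp. All 4 transgenic values stood above all 4 controls, by 32 bp between the nearest pair (6662 and 6694). This was the only member whose region lengths did not overlap between the groups, while 2.13% of all 14753 tested genes were separated in this direction and 0.386% in the other, where no member was. In the window no member was separated in either direction, against 1.86% of genes with higher and 0.481% with lower transgenic values. Inside the genes no member was separated either, against 4.29% and 0.4% of 4752 genes. After each library was centred on its median promoter the groups overlapped at Kmt2e. The log2 difference was 0.06 ± 0.04 (SE, n = 4 each, limma adjusted p = 0.999). The authors' fold enrichment at the strongest peak there lay between 42.7 and 82.0, above at least 99.56% of peaks in every list.

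Kmt2a, which encodes the founding enzyme of the family, had a region of 6363 bp (chr9:44877189-44883551) reaching 4163 bp into the gene. Control replicates 1 to 4 had 4991, 5564, 5261 and 5928 bp and transgenic replicates 5142, 5794, 5097 and 5776 bp, so the groups interleave. The authors' fold enrichment at its strongest peak was 53.6 to 72.7, above at least 99.44% of peaks in each list. That summit lay 564 to 727 bp inside the gene in every library. The noncoding RNA gene Gm39326 spans the whole region.

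Kmt2d needed a different end. Its better covered gene end, at 98831669 on chromosome 15, is not where it starts: the RefSeq promoter table puts its start on the minus strand at 98871205, 39536 bp away. The region at the rule's end (chr15:98830477-98832058) holds the annotated start of Prkag1, which encodes a subunit of AMP-activated kinase, at 98831508. Its window lengths of 1298 to 1582 bp in control and 1337 to 1514 bp in transgenic libraries are the same values as those of Prkag1. At the annotated start of Kmt2d the region (chr15:98868132-98872980) covered 3913, 4559, 4245 and 4712 bp in control and 4514, 4539, 4721 and 4780 bp in transgenic libraries. The groups overlapped, and the mean of 4498 bp lay between those of Kmt2a and Kmt2c. It was above 96.6% of tested genes, whose lengths were taken at their better covered ends. By the rule, this region counts as marking inside the gene, where Kmt2d had 3913 to 4982 bp.

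Kmt2c, on a gene of 227061 bp, had 2 regions side by side at its end (chr5:25496554-25501085, with a gap between them). They reach 2301 bp into the gene and 2230 bp away from it, and hold 1 end of the noncoding RNA gene 4831440E17Rik. Control replicates 1 to 4 had 3677, 3377, 3441 and 3670 bp and transgenic replicates 2571, 3920, 3919 and 4103 bp. Transgenic replicate 1 stood far below the other 3, which were all above the controls. The log2 difference of the region length was -0.01 ± 0.11 with that library and 0.11 without it, in the limma fits, neither past the threshold. A small region inside the gene (chr5:25471897-25472501) had 300 to 496 bp covered in all 8 libraries.

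Among the members with shorter regions, Kmt2b (chr7:30587009-30589944) had 1985 to 2794 bp in control and 2233 to 2745 bp in transgenic libraries. The same region holds 1 end of Zbtb32, a zinc finger gene, but not its annotated starts on the minus strand, at 30592942 and 30598909. Setd1a (chr7:127776118-127778700), whose enzyme is related to that of Setd1b, had 2127 to 2346 bp and 2286 to 2561 bp. The scaffold gene Wdr5 (chr2:27514031-27516593) had 1942, 1985, 1580 and 2509 bp in control and 2201, 2009, 2357 and 2497 bp in transgenic replicates 1 to 4. Its controls had the widest relative spread among these 5 genes. Men1 (chr19:6334919-6337180) had 1821 to 2182 bp and 1988 to 2236 bp, and nearly all of its region lay inside the gene, 2201 bp against 60 bp outside. Cxxc1, on chromosome 18 (74215401 to 74217407), had 1769 to 1957 bp and 1622 to 1972 bp. In all 5 the groups overlapped.

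**Figure D2:**
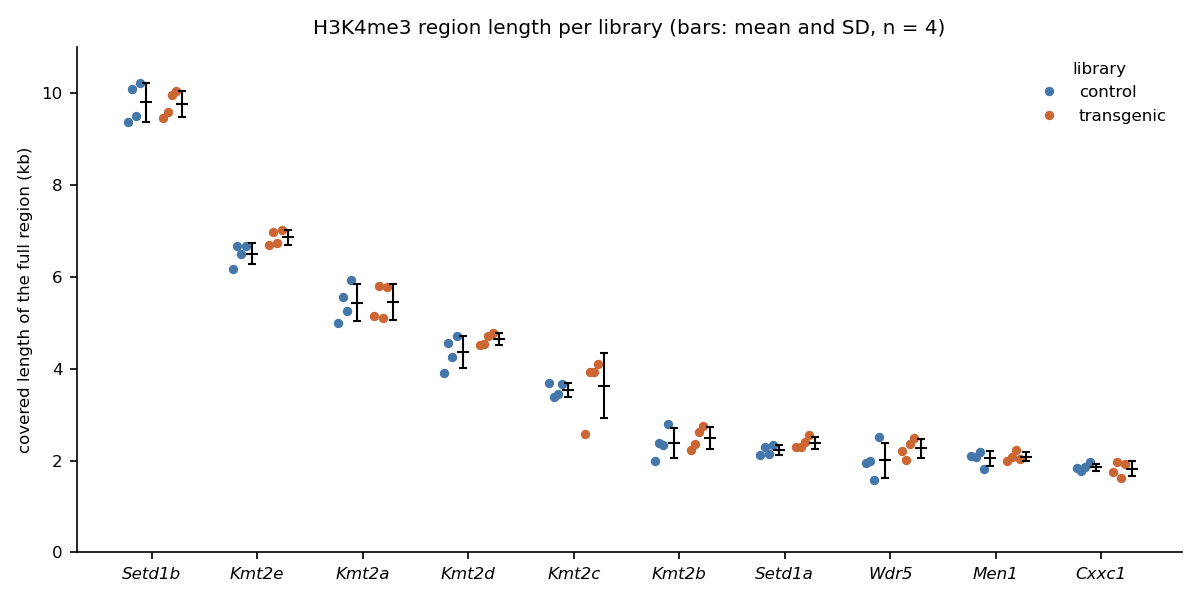
Covered length of the full region (kb) per library at the 10 genes, ordered by mean, with points for single libraries and bars for mean and SD (n = 4 per group); Kmt2d is shown at its annotated start. The groups overlap at every gene except Kmt2e, and transgenic replicate 1 is the low point at Kmt2c.

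No member passed the test between transgenic and control libraries in any of the 3 lengths. In the window 0 of 10 passed limma's adjusted p of 0.05, and 0 of all 14753 genes did (0%), with 608 genes and no member at an unadjusted p under 0.05. For the region length 0 of 10 members passed against 2 of all tested genes (0.0136%), both higher, which were 2900092C05Rik and the olfactory receptor gene Olfr122, named here after their values were seen. At an unadjusted p under 0.05 there were 627 genes and no member. For the inside length 0 of the 5 members tested passed, and 0 of 4752 genes (0%), with 317 genes and no member at an unadjusted p under 0.05. The share of members with positive differences was 5 of 10 in the window, and it was 46.4% over all tested genes. Their median log2 difference was -0.02 against -0.01 over all genes.

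The largest window difference among the members was at Wdr5, 0.16 ± 0.11 on the log2 scale of covered bp plus 100 bp (SE, n = 4 each, limma adjusted p = 1.00). It was 0.06 without control replicate 3, its lowest library, and 0.24 without control replicate 4, its highest. Setd1a differed by 0.07 ± 0.05, Kmt2b by 0.04 ± 0.07, Kmt2e by 0.04 ± 0.04 and Men1 by 0.0035 ± 0.07. Kmt2a differed by -0.06 ± 0.04, Setd1b by -0.05 ± 0.03, Cxxc1 by -0.05 ± 0.07 and Kmt2c by -0.04 ± 0.09. Kmt2d stood at -0.06 ± 0.07 at the rule's end and at -0.03 ± 0.04 at its annotated start. Its region length differed by -0.14 ± 0.09 at the rule's end (limma adjusted p = 0.999) and by 0.07 ± 0.05 at the annotated start (limma adjusted p = 1.00). The 95% confidence intervals of the 10 window differences lay between 0.844 and 1.32. These are transgenic to control ratios of covered bp plus 100 bp after centring, with Kmt2d at the rule's end. The window was full in 4 libraries at Setd1b, in 2 at Kmt2e and in 1 at Kmt2a, where it could not show widening.

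**Figure D3:**
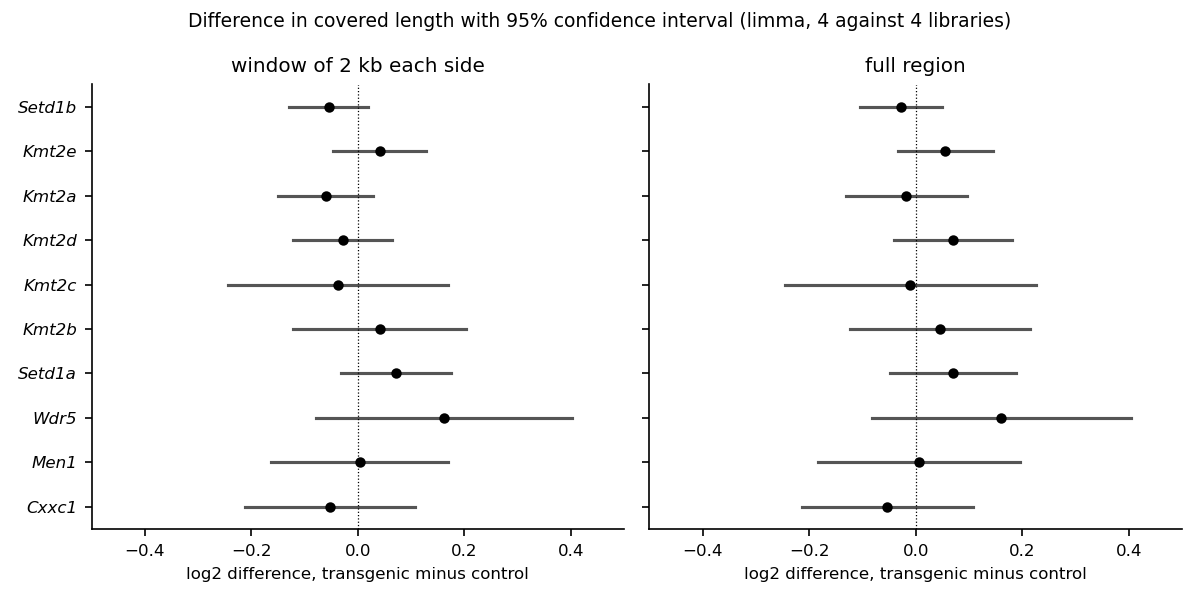
Log2 difference in covered length, transgenic minus control, with its 95% confidence interval from limma (4 against 4 libraries), for the window (left) and the full region (right); Kmt2d is taken at its annotated start. All intervals include 0, and the widest belong to Wdr5 and Kmt2c.

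Inside the genes, the log2 difference was 0.06 ± 0.28 at Kmt2c, -0.01 ± 0.14 at Setd1b and -0.0047 ± 0.06 at Kmt2d, where the rule's inside length is mostly its own start region (all 3 limma adjusted p = 0.998). The other 2 members tested differed more, on short lengths. Kmt2a had a region of 512 bp (chr9:44875317-44875828) with a peak in 4 libraries, 291 bp in control replicate 3 and 269, 261 and 506 bp in transgenic replicates 1, 3 and 4. Its log2 difference was 1.00 ± 0.72 (limma adjusted p = 0.873). Without single libraries it ranged from 0.795 to 1.54, the highest without transgenic replicate 2. It was 0.32 with 500 bp added in place of 100 bp. Men1 had 120, 91, 307 and 169 bp in control and 0, 66, 51 and 110 bp in transgenic libraries, a difference of -0.87 ± 0.43 (limma adjusted p = 0.788), or -0.34 with 500 bp added. Those base pairs are the edge of a region of 1789 bp that holds the start of the neighbouring kinase gene Map4k2. Kmt2b, Kmt2e, Setd1a, Cxxc1 and Wdr5 had no other peak inside the gene in any library.

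Peaks left gaps at or near the start site of several members, or within 1 kb of the gene end where no start site was known. At Kmt2a no base of the 300 bp promoter was covered in 5 of 8 libraries, 53 bp were covered in transgenic replicate 3, and all 300 bp in control replicate 4 and transgenic replicate 4. The uncovered stretch around the start site ran over 442 to 460 bp in control replicates 1 to 3 and over 366 to 685 bp in transgenic replicates 1 to 3. At Kmt2c 118 bp just upstream of the start site (chr5:25498846-25498963) were uncovered in all 8 libraries. The start base itself was covered in 7 of them, all but transgenic replicate 1, where the gap was 992 bp. Kmt2b, whose start site is not in the table, had a gap of 192 to 497 bp just inside its gene end in the same 6 libraries as Kmt2a. At Setd1a the gap was 60 to 237 bp, again in those 6 libraries. Wdr5 had a gap of 107 to 243 bp in 5 libraries, which left 241 to 300 bp of its promoter covered because most of the gap lay inside the gene. Kmt2d had a gap of 103 to 182 bp in 4 libraries, upstream of its start site, with 258 to 300 bp of the promoter covered. For Setd1b, Cxxc1 and Kmt2e, also without a start site in the table, gaps were placed by the gene end. Setd1b had a gap of 75 to 459 bp in 4 libraries, within 229 to 687 bp inside the gene. Cxxc1 had one of 69 to 97 bp in 3 and Kmt2e one of 85 bp in 1. The peaks of Men1 began close to its start site and covered 128 to 170 bp of its promoter, with no gap in any library.

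**Figure D4:**
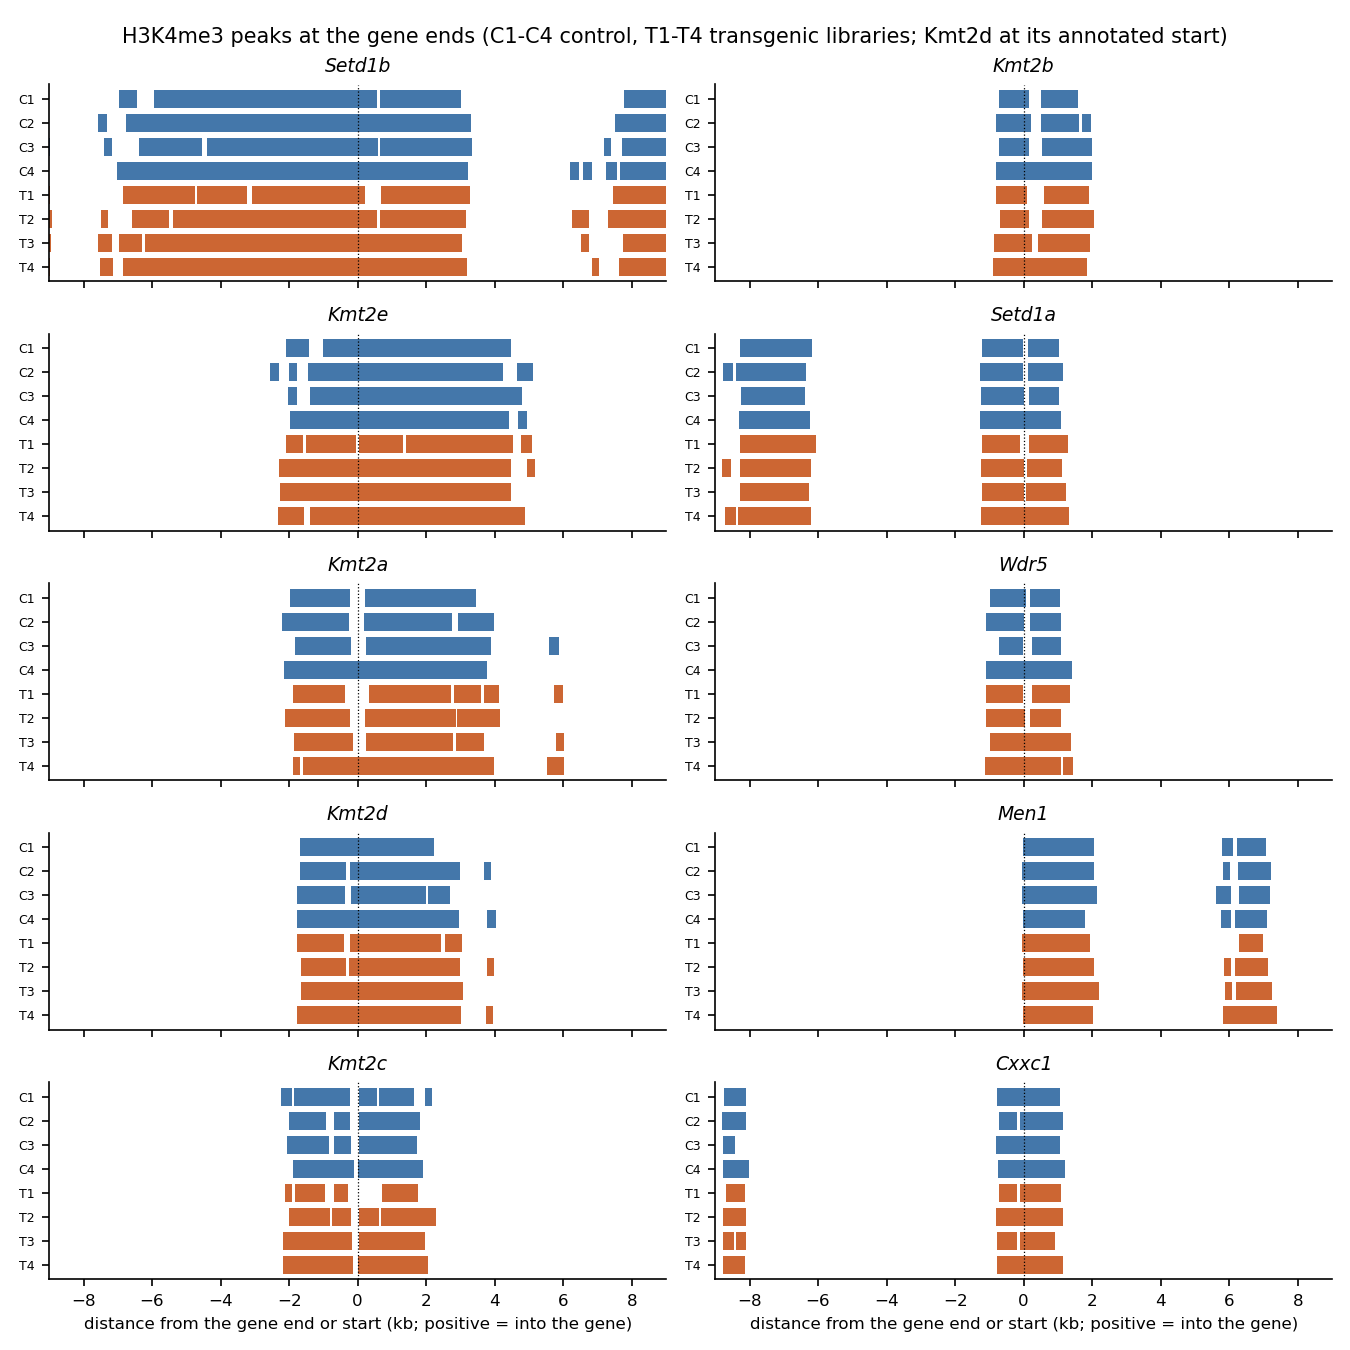
Peaks of the 8 libraries within 9 kb of the gene end (Kmt2d: annotated start), 1 row per library, with distance in kb and positive values pointing into the gene. A gap stands at 0 in 6 of 8 rows at Kmt2a and in all 8 at or just outside 0 at Kmt2c, and the rows C4 and T4 are unbroken around 0 at Kmt2a, Kmt2b and Setd1a.

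Whether these gaps were bridged differed between libraries within each group. Control replicate 4 and transgenic replicate 4 had a gap within 1 kb of the gene end at 1 of 10 members, Kmt2c in both. Control replicates 1 to 3 had such gaps at 6, 7 and 7 members and transgenic replicates 1 to 3 at 9, 7 and 5. Over the 10 regions control replicate 4 had 12 peaks and transgenic replicate 4 had 14, while transgenic replicate 1 had 29 and the other 5 libraries 17 to 23. The same 2 libraries had the widest median promoter of all libraries (10.92 for both, as log2 of covered bp plus 100 bp), and transgenic replicate 1 the narrowest (10.74). The part of a library's median breadth in the gaps was not tested.

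Gaps at the start site also went along with GC content over all genes. Among 10821 genes with a peak in all 8 libraries around the annotated start, the start base was uncovered in at least 5 libraries for 13.8%. This share was 7.03% of the 3316 promoters with 50 to 60% GC, 25.9% of the 1878 with 70 to 80%, the range of Kmt2a, and 60.1% of the 228 with at least 80%, the range of Kmt2c. It was also high, 23.7%, among the 1149 with under 50% GC. Kmt2a was uncovered there in 6 libraries, Wdr5 and Setd1a in 3 each, Kmt2c in 1, and Kmt2d and Men1 in none. These are descriptions over genes that share libraries, and the part of base composition in the gaps was not tested.

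**Figure D5:**
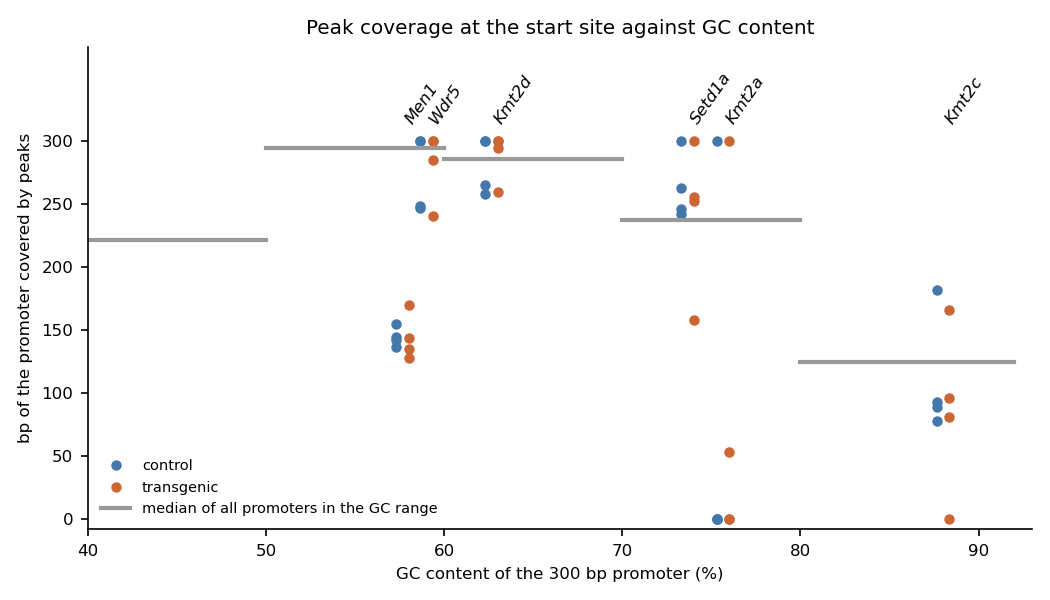
Base pairs of the 300 bp promoter covered by peaks, against its GC content (%), for the 6 members with a start site in the table; each point is 1 library, and grey lines are medians of all promoters within each GC range. Kmt2a points fall at 0 or 300 apart from 1 at 53, and Kmt2c points stay at or below 182.

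Of 13 further subunits and partners, 11 had a window peak in all 8 libraries and were tested. Of these 7 stood above and 4 below 0, and 0 passed limma's adjusted p of 0.05. The smallest p belonged to Tasp1, which encodes the protease that cleaves KMT2A (-0.12 ± 0.06), and Ncoa6, a coactivator gene of the KMT2C and KMT2D complexes (0.17 ± 0.09, both limma adjusted p = 1.00). The core subunit genes Ash2l and Dpy30 had no peak within 2 kb of either annotated gene end, and 2004 to 2327 and 1386 to 1846 bp of peaks inside the gene. Among other SET-domain genes linked to H3K4, 2 of 6 stood above 0, with Smyd2 at -0.06 and Setd7 at 0.04. Among demethylases of H3K4, 2 of 5 did, with Kdm1a at 0.13 and Kdm1b at -0.07. Among methyltransferases of other H3 lysines 7 of 13 did, with Suv39h2 at -0.17 and Ehmt2 at 0.11. None of these passed. The median region length was 2368 bp for the 10 members by the rule, 2425 bp for the further subunits, 1785 bp for the other SET-domain genes linked to H3K4, 2158 bp for the demethylases and 2089 bp for the other methyltransferases. The member median counts Kmt2d at the rule's end, with a mean of 1399 bp, not at its annotated start, with 4498 bp. Genes without a window peak, Ash2l, Dpy30 and Smyd1, entered the medians of their lists as 0 bp. For these reasons the medians do not rank the lists.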

How the data were processed

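H3K4me3 ChIP-seq peaks of 8 libraries were used, 4 per group, grouped by the sample titles. The 2 input samples were not analysed here. Per the submitters' processing notes, Bowtie2 2.0.2, SAMtools 1.3.1 and MACS2 were used with mm10. The sources used here give neither their settings nor the background library of each list. The authors deposited 1 list per library, not pooled, with a score, a fold enrichment (a ratio) and −log10 p- and q-values per peak, used only to describe, rank or filter peaks. Depth is unknown, so a wider mark and a deeper library cannot be told apart from peak lengths.

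Peaks were merged within a library and joined across libraries into union regions, each needing peaks from 2 or more lists, 1 bp of overlap sufficing. For the window and region lengths, genes with a window peak in at least 4 libraries were tested. For the inside length, genes with another peak inside the gene in at least 4 libraries were tested. Each library's median over genes with the respective peak in all 8 was subtracted. The test was limma 3.58.1 in R 4.3.3 on log2(bp + 100 bp) (trended, robust variance, Benjamini-Hochberg), two-sided. It was also run on simulated data with independent noise, and the outcome is not given here. This scale understates changes of short lengths. The better covered end was the side of the annotated start for 77.1% of 17492 genes in the start site table, but not for Kmt2d, which is given at both ends. The members and lists were chosen with earlier results of these data known. Named genes are the 10 members and, per list, the 2 tested genes with the smallest p. The gene nearest in length is given for all members but Men1, for which it is not reported here. Promoter sequences are from RefSeq. The motifs and the gap measure were chosen after the peaks were seen. Alternatives covered centring, normalization, pseudocount, filters, window, peak ranking, variance, pairing and single libraries.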

Additional observations from a re-analysis of the deposited data

Results flagged for a closer look

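The values below were picked because 1 library of a group of 4 lay far from the other 3, by Dixon's criterion, which chance meets in about 1 in 20 groups. With 10 members, 3 lengths and 2 groups, some such values would arise by chance. Transgenic replicate 1 had 2571 bp at the Kmt2c region, where the other 3 had 3919 to 4103 bp. Control replicate 4 had 1821 bp in the Men1 window, where the other 3 had 2033 to 2046 bp. Transgenic replicate 2 had 2448 bp inside Setd1b, where the other 3 had 1688 to 1788 bp. Control replicate 3 had 291 bp inside Kmt2a, where the other 3 had 0. Any covered length would meet the criterion there, so the rate of 1 in 20 does not apply to it.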

How the results depend on the processing

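No member passed the threshold under any alternative (smallest limma adjusted p = 0.619), and 453 of 493 member values kept their sign. For window length, ordinary variances gave 4 genes higher and 1 lower. For region length, 2 genes were called higher, 1 without centring, 0 with equal numbers of top-ranked peaks, 1 at annotated starts, 1 with peaks up to 500 bp apart joined and 0 to 2 without single libraries (0 without control or transgenic replicate 4, 1 without control replicates 1 or 3 or transgenic replicates 1 or 2). Genes called lower were 2 with a peak in at least 1 library, 1 with ordinary variances and 2 with joined peaks. For inside length, quantile normalization gave 4 higher, a peak in at least 1 library 2, and ordinary variances 4 higher and 3 lower. With a replicate block the region count was 4 and no member passed. Same-numbered libraries correlated at -0.01, -0.00017, -0.11 and 0.32 in their deviations, and 1 of 4 matched its own number best, so the block was not read as pairing.

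The sign changed under the settings below, and the cause was not tested. The region difference at Kmt2d was -0.14 at the rule's end. In the window, Kmt2e was -0.0165 and Men1 -0.00235 at 1 kb, and Men1 -0.051 at 5 kb and -0.0025 at the annotated start. For the region, Kmt2a was 0.00448 and Kmt2c 0.0123 without centring, Men1 -0.00105 with quantile normalization, Kmt2d 0.0704 at its annotated start and 0.0378 with joined peaks, and Setd1b 0.0278 with joined peaks. Inside, Kmt2c was -0.0737 with quantile normalization. Inside Kmt2d it was 0.0862 without centring, 0.00612 at a pseudocount of 500 bp, 0.0215 with equal numbers of peaks and 0.0109 with joined peaks. Inside Setd1b it was 0.0852 without centring, 0.0188 at a deposited −log10 q of at least 3 and 0.0884 with equal numbers of peaks. Without single libraries the window ranged from -0.0189 to 0.0911 (Kmt2b), -0.078 to 0.0704 (Kmt2c), -0.0874 to 0.00895 (Cxxc1) and -0.0634 to 0.0346 (Men1). The region ranged from -0.0438 to 0.0223 (Kmt2a), -0.0126 to 0.0969 (Kmt2b), -0.0531 to 0.107 (Kmt2c), -0.0884 to 0.00614 (Cxxc1) and -0.0747 to 0.0397 (Men1). Inside it ranged from -0.0308 to 0.167 (Kmt2c), -0.032 to 0.024 (Kmt2d) and -0.11 to 0.093 (Setd1b).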

Other observations

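The tested gene whose window lengths over the 8 libraries were nearest to a member's, by root mean square difference of log2 values, was Smarcc2 for Kmt2b (0.04) and Smarcd2 for Setd1a (0.03), both subunit genes of SWI/SNF chromatin remodelling complexes. It was Ptma for Kmt2c (0.06), BC005537 for Kmt2a (0.05), Tob2 for Kmt2e (0.05), Zfp40 for Cxxc1 (0.04) and Foxj3 for Wdr5 (0.07). For Kmt2d and Setd1b it was the neighbour whose gene end shares the same peaks, Prkag1 and Rhof, at a difference of 0. Likeness in length over 8 libraries says nothing of shared function.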
